A study of Mus musculus with 8 samples.

Results

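Homeostatic astrocyte genes are the transporters, channels, gap junction proteins and metabolic enzymes by which resting astrocytes clear transmitter, buffer ions and exchange small molecules with each other. 9 of them were taken by name: Slc1a3, Slc1a2, Slc4a4, Aqp4, Mlc1, Gja1, Gjb6, Agt and Aldh1l1. The choice rests on names and applies no cut-off on a measured value, but it was made with earlier results of these data known. All 9 were present among the 55487 gene identifiers of the deposited tables. All 9 also passed the filter on low counts that kept 17339 genes for testing. The data are RNA-seq libraries of mouse dorsomedial hypothalamus (DMH), which takes part in feeding and arousal, and the sample names carry the letters LMD, the usual short form of laser microdissection. In the shPpp1r17 group (4 libraries, genotype labelled Ppp1r17 knockdown) a short hairpin RNA was directed at Ppp1r17, an inhibitor of protein phosphatases. In the shfLuc group (4 libraries, genotype labelled fLuc knockdown) the hairpin was directed at firefly luciferase, a gene that mice lack. The labels give neither the strain, age and sex of the mice, nor how the hairpin reached the tissue, which cells took it up, or whether each library came from its own animal. The p-values therefore measure spread among libraries, part of which may be technical.

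Astrocytes take up synaptically released glutamate through sodium-driven transporters and turn it into glutamine. They also draw potassium and bicarbonate across their membranes, place water channels on the end feet that wrap blood vessels, and are joined by connexin gap junctions into a network. In the hypothalamus they secrete angiotensinogen and other precursors, and they are known to shift from this resting programme to a reactive one, marked by the intermediate filament genes Gfap and Vim, after injury or inflammation.

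The libraries held 23070147 to 33907984 estimated reads. Ppp1r17 itself stood at 87.7, 2.07, 3.10 and 87.2 CPM (reads per 1000000, after TMM scaling of the libraries) in shPpp1r17 libraries 1 to 4, against 147, 161, 161 and 171 CPM in shfLuc libraries 1 to 4. Its level was thus far lower in shPpp1r17 libraries 2 and 3 than in shPpp1r17 libraries 1 and 4, and these same 2 libraries were the shPpp1r17 libraries farthest from 0 on the first principal component (30.4% of the variance), at 50.1 and 50.7, with shPpp1r17 libraries 1 and 4 at 20.9 and 4.2 and the shfLuc libraries at -52.8 to -5.1. Values for the astrocyte genes are therefore also given without them where the call or the size depends on it. Astrocyte RNA was plainly present, with the 9 genes together taking 0.225% to 0.258% of all reads in shPpp1r17 libraries and 0.272% to 0.306% in shfLuc libraries. The dorsomedial identity was checked with Npvf, a neuropeptide gene of this region, at 87.9 to 116 TPM (the deposited scale per gene length) in shPpp1r17 libraries and 95.5 to 200.3 TPM in shfLuc libraries. Brs3, a bombesin-like receptor gene of the same region, stood at 16.2, 3.43, 3.88 and 13.6 TPM in shPpp1r17 libraries 1 to 4, against 19.0 to 26.1 TPM in shfLuc libraries. The groups did not overlap for Brs3, and shPpp1r17 libraries 2 and 3 held 15.3% and 17.4% of the shfLuc mean. What part a difference in the cells sampled has in the astrocyte values was not tested.

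3 of the 9 astrocyte genes fell in shPpp1r17 and none rose: Agt, Slc1a3 and Slc4a4 passed the threshold (adjusted p of at most 0.05, edgeR quasi-likelihood test, Benjamini-Hochberg over all 17339 genes). Of all genes tested, 6.06% passed, with 3.39% higher and 2.66% lower. Among the 6332 tested genes at least as abundant as Aldh1l1, the least abundant of the 9 in CPM, 5.51% were called lower. For 4 of the 9 (the 3 called genes and Aldh1l1) the groups did not overlap, against 13.9% of all tested genes and 22.4% of those at least as abundant as Aldh1l1. The median log2 fold change of the 9 genes was -0.15, with 5 of 9 below 0, beside a median of 0.00 and 49.4% below 0 over all genes. In whole-tissue RNA of this kind, fewer astrocytes and less RNA per astrocyte cannot be told apart.

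**Figure D1:**
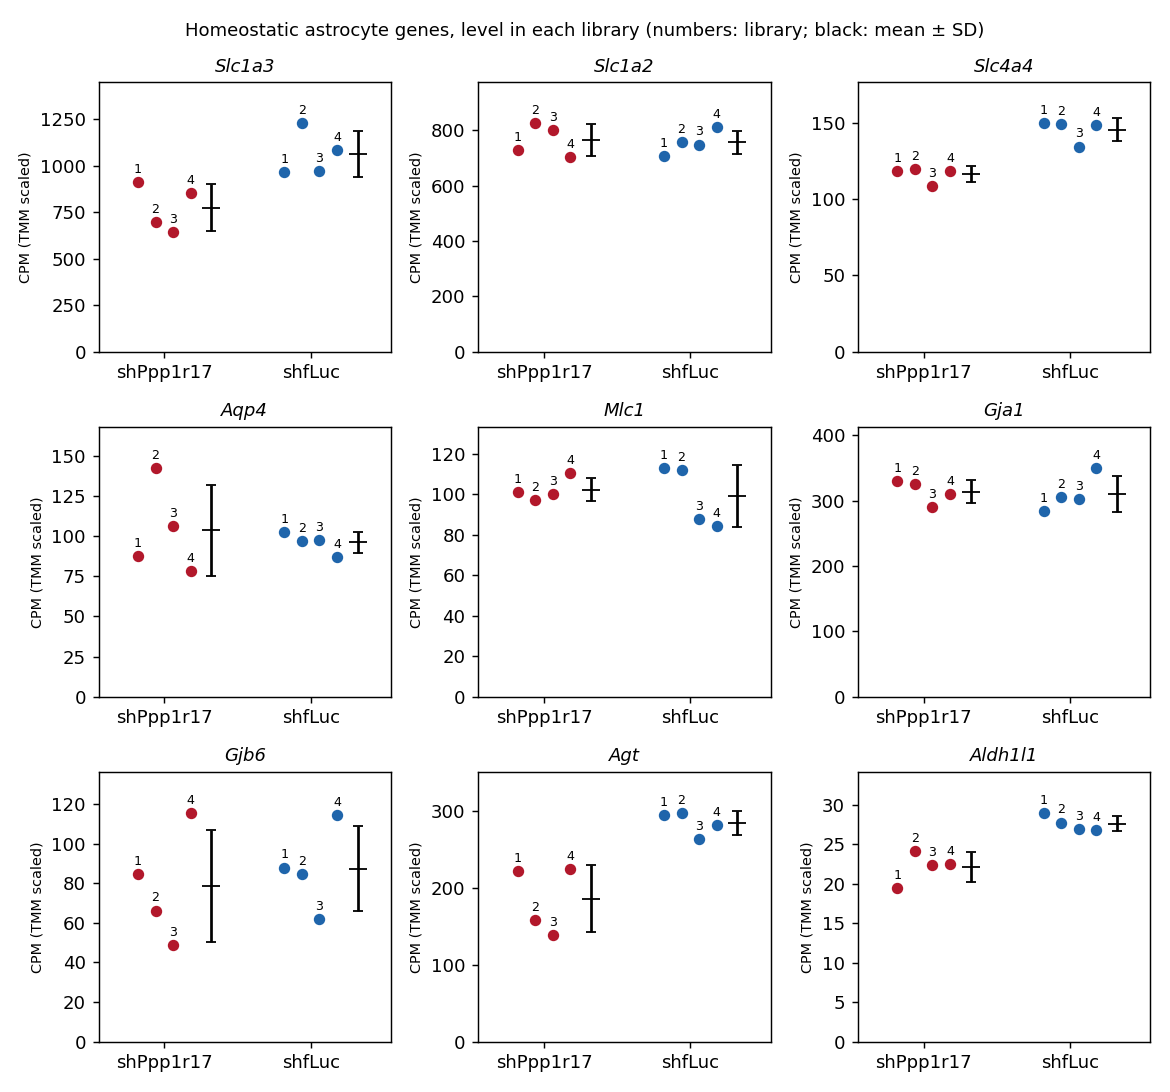
Level of each of the 9 genes in CPM in every library, with shPpp1r17 libraries left and shfLuc libraries right in each panel. Points are libraries with their replicate numbers and the bars give the group mean and SD (n = 4 each). The groups do not overlap for Slc1a3, Slc4a4, Agt and Aldh1l1.

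Of the glutamate transporters, Slc1a3 fell and Slc1a2 did not pass the test. Slc1a3 (ENSMUSG00000005360, chr15:8634124-8710764 on the minus strand) encodes GLAST, the sodium-driven glutamate and aspartate transporter of astrocytes and other glia. It stood at 912, 695, 641 and 850.2 CPM in shPpp1r17 libraries 1 to 4, against 968, 1226, 972 and 1083 CPM in shfLuc libraries 1 to 4. Every shPpp1r17 library lay below every shfLuc library, and libraries 2 and 3 were the lowest. The mean was 775 ± 127 CPM in shPpp1r17 and 1062 ± 122 CPM in shfLuc (SD, n = 4 each), a log2 fold change of -0.46 (SE 0.11) with an adjusted p of 0.0320. On the TPM scale it was the most abundant of the 9 genes in both groups, at 246 ± 42.4 TPM in shPpp1r17 and 359 ± 43.7 TPM in shfLuc.

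Slc1a2 (ENSMUSG00000005089, chr2:102658659-102790784 on the plus strand) encodes the transporter that carries most glutamate uptake in the forebrain. It stood at 729, 825, 802 and 703 CPM in shPpp1r17 libraries 1 to 4, against 708, 758, 749 and 812 CPM in shfLuc libraries 1 to 4. The groups overlapped, and libraries 2 and 3, the lowest for Slc1a3, were the highest shPpp1r17 libraries for Slc1a2. The means were 765 ± 57.9 CPM in shPpp1r17 and 756 ± 42.9 CPM in shfLuc, with a log2 fold change of 0.02 (SE 0.07, adjusted p = 0.928). Of the 6 measured Slc1 family genes, Slc1a3 was the one that passed. The neuronal transporter Slc1a1 averaged 51.4 ± 2.88 CPM in shPpp1r17 and 50.4 ± 3.06 CPM in shfLuc (log2 fold change 0.03, adjusted p = 0.878), and the neutral amino acid carrier Slc1a5 averaged 3.24 ± 0.994 CPM in shPpp1r17 and 1.59 ± 1.05 CPM in shfLuc (1.03, adjusted p = 0.281).

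The difference between the transporters was put to a test of its own, as the log2 ratio of Slc1a2 to Slc1a3 within each library, a measure that does not depend on how libraries are scaled. The log2 ratio was -0.32, 0.25, 0.32 and -0.27 in shPpp1r17 libraries 1 to 4, against -0.45, -0.69, -0.38 and -0.42 in shfLuc libraries 1 to 4. Every shPpp1r17 library lay above every shfLuc library, and shPpp1r17 libraries 2 and 3 were highest. The ratio is one of reads, not of transcripts. The means differed by 0.48, with p = 0.0286 in an exact two-sided permutation test, which can give no smaller p with 4 libraries per group. Adjusted over the 10 ratios tested, p was 0.143, so the ratio did not pass. A ratio at the smallest possible p can pass after adjustment only if most of the 10 ratios are also at it. The adjusted value therefore says little about this ratio by itself. Without shPpp1r17 libraries 2 and 3 the difference was 0.19.

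The transcripts of both transporters hold a match to an 8-base word that is over-represented in the 3' UTRs of genes called lower in these libraries, CTCTGATA. The word was first picked out on these same libraries, so its enrichment is not independent evidence. It is shown to describe which of the 9 genes hold it. A match of at least 7 bases was present in 18.7% of the 14261 searched 3' UTRs, in 55.1% of those of genes called lower and in 7.35% of those called higher. The full word was present in 2.72% of all, in 14.9% for genes called lower, 0.816% for genes called higher and 2.39% for genes not called. These sets differ in the room for a match, with a median 3' UTR of 2166 bases for genes called lower, 580.0 for genes called higher and 1225 over all, and no correction for length was made. 3 of the 9 genes held one: Slc1a3 the full 8 bases, Slc1a2 and Aqp4 the first 7. The sites below are written 5' to 3' on the transcript strand from GRCm38, with the match in capitals. The Slc1a3 site lies 105 bases into a 3' UTR of 2008 bases, at chr15:8636020-8636027 on the minus strand, in exon 10 of 10. The Slc1a2 site lies 6446 bases into a 3' UTR of 9250 bases, at chr2:102787980-102787986 on the plus strand, in exon 11 of 11.
Slc1a3: tttcctccctaCTCTGATAggattggaaaa
Slc1a2: accatatcaccCTCTGATcagtattgcac
Slc1a3, with the full word, fell, while Slc1a2 and Aqp4, with 7 bases, did not pass. Agt and Slc4a4 fell with no match in 3' UTRs of 396 and 4183 bases. Whether a match goes with the fold changes of the 9 genes was not tested. Among the 13 genes called lower in these 9 and the 5 related astrocyte lists described further on, 7 (53.8%) held a match, close to the 55.1% of all genes called lower. They were Slc1a3, Slc6a9 and Dag1 with the full word, and Kcnj16, Dtna, Sox2 and Rorb with 7 bases. The 13 genes are part of the genes called lower, so the closeness of these shares says nothing particular to astrocyte genes. A match describes the letters of the annotated 3' UTR only.

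Of the genes for ions and water, Slc4a4 fell, and Aqp4 and Mlc1 did not pass. Slc4a4 (ENSMUSG00000060961, chr5:88886818-89239653 on the plus strand) encodes the electrogenic sodium bicarbonate cotransporter with which astrocytes regulate pH. It stood at 119, 119.9, 108 and 118 CPM in shPpp1r17 libraries 1 to 4, against 149.6, 149, 134 and 149 CPM in shfLuc libraries 1 to 4. The groups did not overlap, and the 4 shPpp1r17 libraries lay within a narrow band of 74.6% to 82.4% of the shfLuc mean. Means were 116 ± 5.28 CPM in shPpp1r17 and 145 ± 7.36 CPM in shfLuc, a log2 fold change of -0.32 (SE 0.07) with an adjusted p of 0.0201. When trends with gene length and GC content were removed, a setting added once the data had been seen, Slc4a4 had a log2 fold change of -0.21 and an adjusted p of 0.104.

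Aqp4 (ENSMUSG00000024411, chr18:15389496-15410982 on the minus strand) encodes the water channel of astrocyte end feet. It stood at 87.3, 142, 106 and 78.3 CPM in shPpp1r17 libraries 1 to 4, against 103, 97.1, 97.3 and 87.0 CPM in shfLuc libraries 1 to 4. The shPpp1r17 libraries lay on both sides of the shfLuc libraries, with library 2 at 148% and library 4 at 81.5% of the shfLuc mean. Means were 103 ± 28.3 CPM in shPpp1r17 and 96.0 ± 6.59 CPM in shfLuc (log2 fold change 0.11, SE 0.15, adjusted p = 0.722). Mlc1 (ENSMUSG00000035805, chr15:88955884-88979007 on the minus strand) encodes an end-foot membrane protein whose loss in humans causes a leukoencephalopathy with cysts. It stood at 101, 97.3, 100.3 and 111 CPM in shPpp1r17 libraries 1 to 4, against 113, 112, 87.7 and 84.3 CPM in shfLuc libraries 1 to 4, so the shPpp1r17 libraries fell inside the range of the shfLuc libraries. Its log2 fold change was 0.05 (SE 0.10, adjusted p = 0.843).

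Neither gap junction gene passed. Gja1 (ENSMUSG00000050953, chr10:56377330-56402513 on the plus strand) encodes the main connexin of astrocytes. It stood at 329.9, 326, 290.3 and 311 CPM in shPpp1r17 libraries 1 to 4, against 284, 305, 303 and 349.6 CPM in shfLuc libraries 1 to 4. The shPpp1r17 libraries lay inside the range of the shfLuc libraries, with means of 314 ± 17.9 CPM in shPpp1r17 and 310.5 ± 27.7 CPM in shfLuc, and the log2 fold change was 0.02 (SE 0.08, adjusted p = 0.930). Gjb6 (ENSMUSG00000040055, chr14:57123303-57133611 on the minus strand) encodes their second connexin. It stood at 84.4, 66.2, 49.0 and 115 CPM in shPpp1r17 libraries 1 to 4, against 87.9, 84.7, 62.1 and 115 CPM in shfLuc libraries 1 to 4. Libraries of 1 group differed for Gjb6 by more than the group means did. The means were 78.7 ± 28.3 CPM in shPpp1r17 and 87.3 ± 21.5 CPM in shfLuc with a log2 fold change of -0.15 (SE 0.22, adjusted p = 0.749). Its lowest value in each group was in library 3. With the deposited TPM values in place of counts, the log2 fold changes of Slc1a2, Gja1, Aqp4 and Mlc1 took the opposite sign, at -0.072, -0.076, -0.053 and -0.036, and none of the 4 passed on either scale. The median over all 17339 genes was -0.062 on this TPM scale, against 0.0043 on counts. Gjb6 had a log2 fold change of -0.41 on TPM (adjusted p = 0.362 in limma) and of -0.31 with the deposited effective length as an offset (adjusted p = 0.503 in edgeR), over 1.5 times larger than on counts and short of the threshold.

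With all 8 libraries, Agt had the log2 fold change farthest from 0 among the 9 genes, whereas without shPpp1r17 libraries 2 and 3 Aldh1l1 stood at -0.40 and Agt at -0.35. Agt (ENSMUSG00000031980, chr8:124556534-124569706 on the minus strand) encodes angiotensinogen, the secreted precursor of the angiotensin peptides, made in brain mainly by astrocytes. It stood at 222, 159, 139 and 225 CPM in shPpp1r17 libraries 1 to 4, against 295, 297, 264 and 282 CPM in shfLuc libraries 1 to 4. The groups did not overlap, and shPpp1r17 libraries 2 and 3 were lowest, at 55.8% and 48.9% of the shfLuc mean. Means were 186 ± 43.8 CPM in shPpp1r17 and 285 ± 15.3 CPM in shfLuc, a log2 fold change of -0.61 (SE 0.13) with an adjusted p of 0.0215.

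Aldh1l1 (ENSMUSG00000030088, chr6:90486427-90600203 on the plus strand) encodes a folate enzyme widely used as a general marker of astrocytes. It stood at 19.5, 24.2, 22.4 and 22.5 CPM in shPpp1r17 libraries 1 to 4, against 28.9, 27.7, 26.9 and 26.8 CPM in shfLuc libraries 1 to 4. The groups did not overlap, yet the gene missed the threshold, with means of 22.1 ± 1.94 CPM in shPpp1r17 and 27.6 ± 0.976 CPM in shfLuc, a log2 fold change of -0.32 (SE 0.09) and an adjusted p of 0.0595. It passed with DESeq2 (adjusted p = 0.0222) and with limma on log2(TPM + 1) (adjusted p = 0.0381). It did not pass with limma voom (adjusted p = 0.0696), nor with sample quality weights added (0.0516). In edgeR it did not pass with the replicate number as a block (adjusted p = 0.111) or with length and GC trends removed (0.0789). With each library left out in turn it passed in 0 of 8 edgeR fits (adjusted p 0.0648 to 0.137). Its deposited effective length, the length over which reads could fall, ran from 2241 to 2967 bases in shPpp1r17 libraries and from 1997 to 2638 bases in shfLuc libraries. With that length as an offset the log2 fold change was -0.53 (adjusted p = 0.0457 in edgeR).

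**Figure D2:**
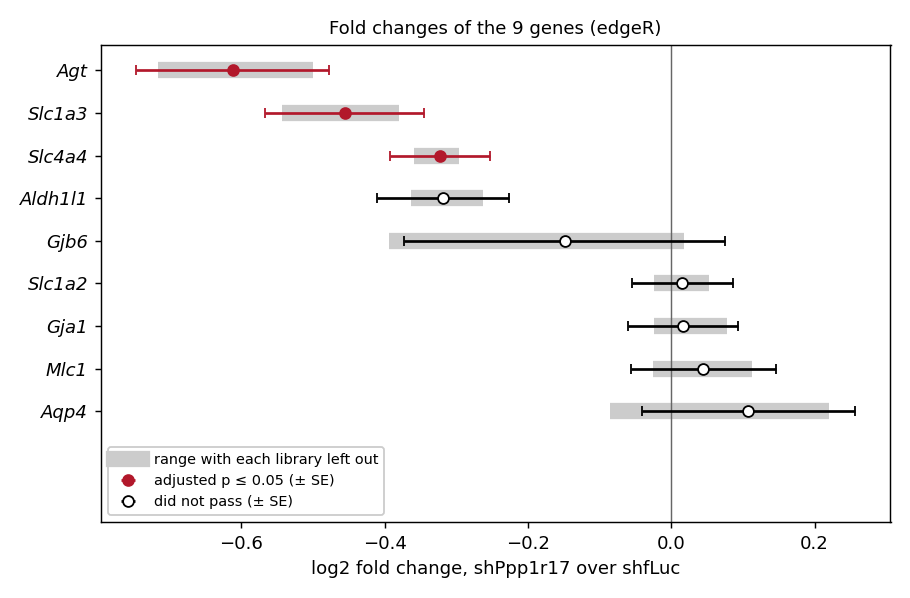
Log2 fold change of the 9 genes, shPpp1r17 over shfLuc, with bars of 1 standard error from edgeR, and grey bars for the range of the fitted value with each library left out in turn. Agt, Slc1a3, Slc4a4 and Aldh1l1 lie at -0.61 to -0.32 with grey bars wholly below 0, and the grey bars of the other 5 genes cross 0.

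The calls of Agt, Slc1a3 and Slc4a4 depended on which library was left out, while their direction did not turn under any alternative tried. With each library left out in turn, the log2 fold change lay between -0.72 and -0.50 for Agt, between -0.54 and -0.38 for Slc1a3 and between -0.36 and -0.30 for Slc4a4. In these 8 fits Agt passed in 3, Slc1a3 in 3 and Slc4a4 in 4. None of the 9 genes passed without shPpp1r17 library 3 or without shfLuc library 2, 3 or 4, and 1 passed without shPpp1r17 library 2. Without both shPpp1r17 libraries 2 and 3, a setting added once the data had been seen, the log2 fold change was -0.35 for Agt (adjusted p = 0.101), -0.27 for Slc1a3 (adjusted p = 0.268) and -0.30 for Slc4a4 (adjusted p = 0.141). The sizes for Agt and Slc1a3 were thus more than 1.5 times smaller without these libraries, and that for Slc4a4 was nearly as large.

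The libraries therefore showed different patterns for different genes. Agt and Slc1a3 were lowest in shPpp1r17 libraries 2 and 3, at 48.9% to 65.5% of the shfLuc mean, and higher in shPpp1r17 libraries 1 and 4, at 78.1% to 85.8%. Slc4a4 and Aldh1l1 did not divide the libraries in this way: Aldh1l1 stood at 70.7% of the shfLuc mean in library 1 and at 87.6% in library 2. Aqp4 divided them the other way, at 148% and 111% of the shfLuc mean in libraries 2 and 3, against 90.9% and 81.5% in libraries 1 and 4. The 4 genes with the smallest p in the reactive astrocyte list, Gfap, Vim, C3 and C4b, were highest in shPpp1r17 libraries 2 and 3. Not every gene of that list followed this order. The log2 level of Gfap stood 2.56 and 2.09 above the shfLuc mean in shPpp1r17 libraries 2 and 3, compared with 1.05 and 0.93 in shPpp1r17 libraries 1 and 4. The 27 genes of the reactive list summed to 473, 809, 681 and 404 CPM in shPpp1r17 libraries 1 to 4, against 291 to 380 CPM in shfLuc libraries. Gfap alone made up 120, 341, 246 and 110 CPM of these sums in shPpp1r17 libraries 1 to 4. The part of this in the levels of Agt and Slc1a3 was not tested.

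**Figure D3:**
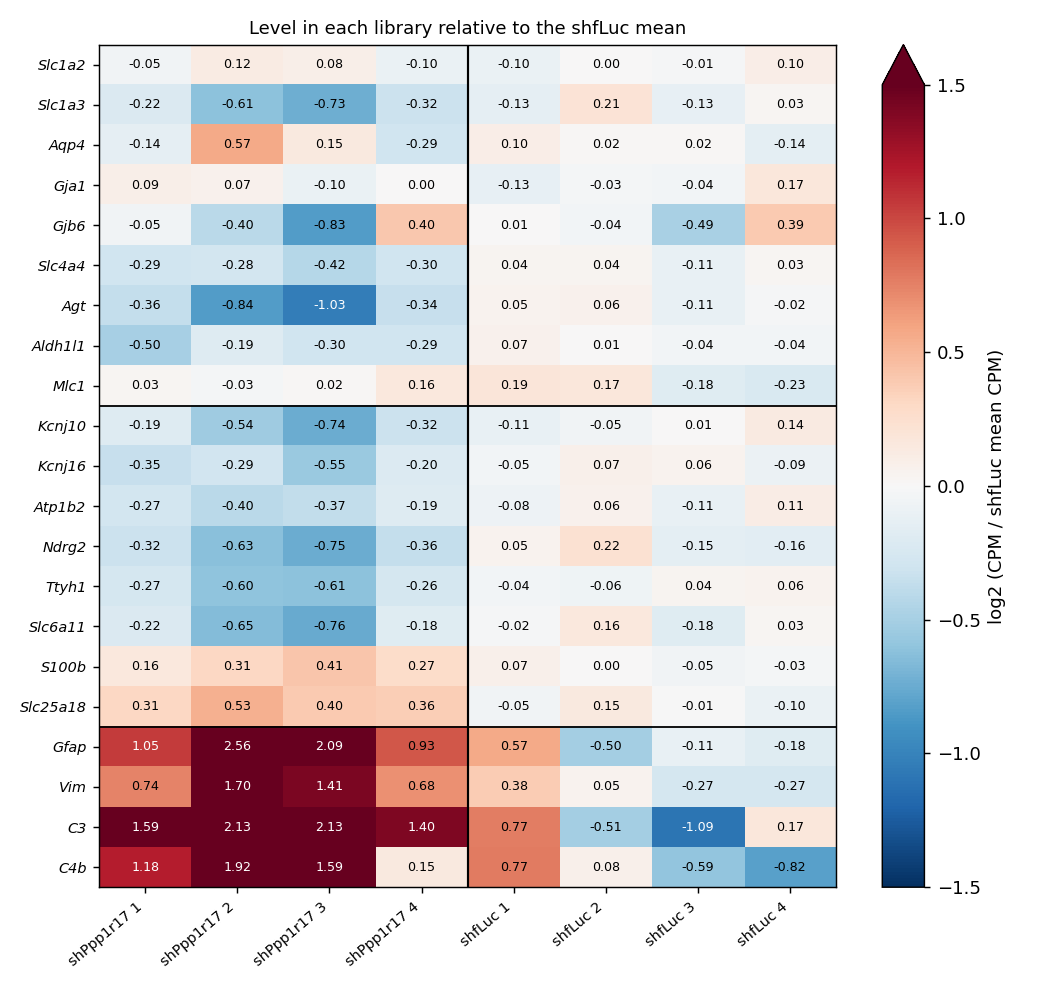
Log2 CPM of the 9 genes, of 8 other astrocyte genes and of 4 reactive genes in each library, as the difference from the log2 of the shfLuc mean CPM (colour and printed value), with shPpp1r17 libraries left of shfLuc libraries. Slc1a3, Agt, Kcnj10, Ndrg2, Ttyh1 and Slc6a11 are lowest in shPpp1r17 libraries 2 and 3, where Gfap and Vim are highest, whereas Slc4a4 is nearly level over the 4 shPpp1r17 libraries.

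Set against Aldh1l1 within each library, the 8 other genes gave log2 ratios whose means differed between the groups by -0.32 (Agt) to 0.39 (Aqp4). The log2 ratio of Slc1a2 to Aldh1l1 was 5.22, 5.09, 5.16 and 4.97 in shPpp1r17 libraries 1 to 4, against 4.61, 4.77, 4.80 and 4.92 in shfLuc libraries 1 to 4. It was higher in every shPpp1r17 library, with a difference of 0.34 (exact two-sided permutation p = 0.0286, adjusted p = 0.143 over 10 ratios). Gja1 and Mlc1 over Aldh1l1 differed by 0.34 and 0.38 with overlapping groups (exact permutation p = 0.0571 each, adjusted p = 0.143 each). On the deposited TPM these differences were larger, at 0.56 for Slc1a2 (exact permutation p = 0.0571), 0.56 for Gja1 (exact permutation p = 0.0286) and 0.60 for Mlc1 (exact permutation p = 0.0571), so the groups overlapped for Slc1a2 and not for Gja1. On counts, Slc1a2, Gja1 and Mlc1 had log2 fold changes of 0.02, 0.02 and 0.05, against -0.32 for Aldh1l1. Their ratios to Aldh1l1 thus differed mainly through the lower Aldh1l1. The ratio of Slc4a4 to Aldh1l1 averaged 2.40 ± 0.15 in shPpp1r17 and 2.40 ± 0.07 in shfLuc, and that of Agt to Aldh1l1 3.05 ± 0.43 in shPpp1r17 and 3.37 ± 0.06 in shfLuc (exact permutation p = 0.343). The ratio of the connexins, Gjb6 over Gja1, averaged -2.07 ± 0.49 in shPpp1r17 and -1.86 ± 0.30 in shfLuc (exact permutation p = 0.486). None of the 10 ratios passed after adjustment, and 2 of 10 had an unadjusted p under 0.05. None could pass unless most of the 10 reached the smallest p possible with these libraries. That none passed therefore does not show that the ratios were alike in the groups.

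**Figure D4:**
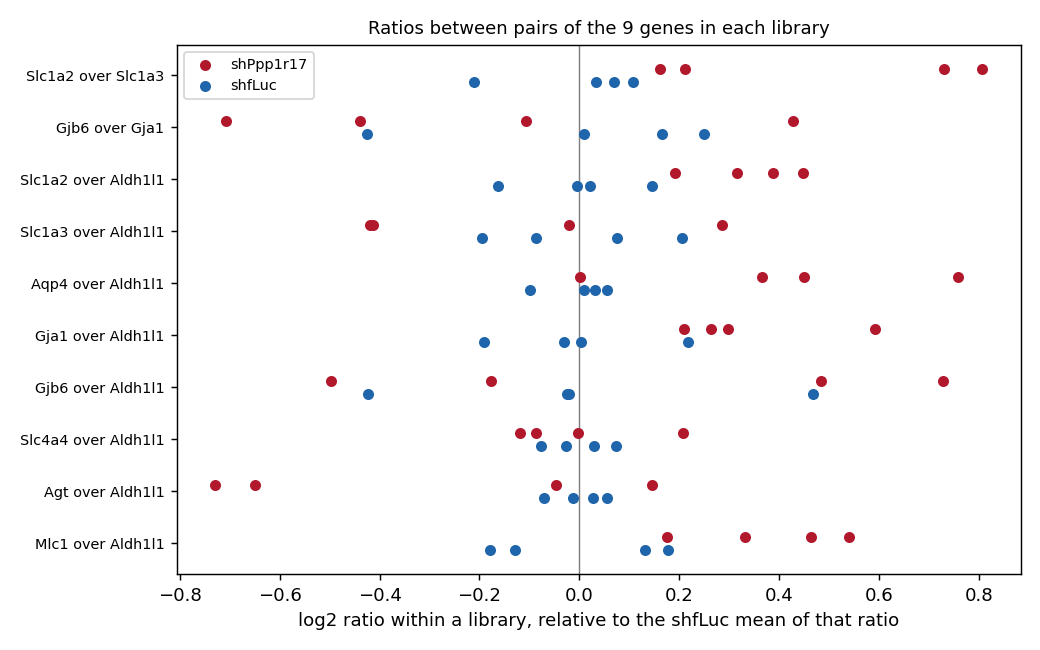
Log2 ratio of CPM within a library for the 10 gene pairs tested, relative to the shfLuc mean of each ratio. Points are libraries, with shPpp1r17 above shfLuc in each pair. The groups do not overlap for Slc1a2 over Slc1a3 and for Slc1a2 over Aldh1l1.

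Slc1a3 and Agt divide the libraries alike, and their promoters are shown beside that of Slc1a2, which does not. Slc1a3 and Agt were picked by their values. Kcnj10, Ndrg2, Ttyh1 and Slc6a11 were also lowest in shPpp1r17 libraries 2 and 3, and their promoters were not examined singly. Whether a motif goes with this pattern was not tested. The windows run from 250 bases before to 50 after the annotated start and come from RefSeq (GRCm38.p6), where 8 of the 9 genes have at least 1. They were searched on both strands for TATAAA (the letters of the TATA box, found in 7.64% of 15323 windows), TTCNNNGAA (the STAT motif, 6.8%), TTGGCA (an NFI half-site, 11.5%) and ACAATG (a SOX motif, 7.71%). These motifs were chosen after the fold changes were seen. Agt and Slc1a3 each held the first and the second, in capitals below, and no window of the other 6 genes held any of the 4. In Agt, TATAAA stands at position -30 and the STAT motif at -172 from the start. In Slc1a3, TATAAA stands on the reverse strand at -161 and the STAT motif at -96. The TATAAA match in Slc1a3 thus differs from that in Agt in strand and place. The Agt window is chr8:124569657-124569956 on the minus strand, the Slc1a3 window chr15:8710758-8711057 on the minus strand and the Slc1a2 window chr2:102706188-102706487 on the plus strand. The Slc1a2 window lies inside the gene span (chr2:102658659-102790784), at an internal start, and the 5' end of that span was not searched. Windows of Slc4a4, Aldh1l1 and Mlc1 also lie inside their gene spans.
Agt: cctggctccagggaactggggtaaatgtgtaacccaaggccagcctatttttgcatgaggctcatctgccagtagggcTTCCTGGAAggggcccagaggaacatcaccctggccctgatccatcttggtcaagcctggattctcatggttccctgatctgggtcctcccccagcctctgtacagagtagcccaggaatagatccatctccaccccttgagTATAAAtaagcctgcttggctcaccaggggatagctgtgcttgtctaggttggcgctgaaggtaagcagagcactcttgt
Slc1a3: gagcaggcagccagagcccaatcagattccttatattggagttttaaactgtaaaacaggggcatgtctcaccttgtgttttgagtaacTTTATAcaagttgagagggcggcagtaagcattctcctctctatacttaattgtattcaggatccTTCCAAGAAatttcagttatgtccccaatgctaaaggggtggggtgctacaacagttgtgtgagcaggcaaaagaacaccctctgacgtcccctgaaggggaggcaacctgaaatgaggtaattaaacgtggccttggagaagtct
Slc1a2: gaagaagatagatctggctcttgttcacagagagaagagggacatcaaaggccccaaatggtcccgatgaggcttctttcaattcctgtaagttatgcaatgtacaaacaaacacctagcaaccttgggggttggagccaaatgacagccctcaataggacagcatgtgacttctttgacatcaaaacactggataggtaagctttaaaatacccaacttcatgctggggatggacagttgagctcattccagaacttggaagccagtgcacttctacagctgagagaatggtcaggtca
The GC content of these windows was 54.7% for Agt, 45.3% for Slc1a3 and 45.7% for Slc1a2, beside a median of 60.3% over all windows. A match is a description of these letters and does not show that a factor binds there.

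Genes that work beside the 9 were followed in 5 further astrocyte lists (ion balance, glutamate and amino acid transport, water channel anchoring, other homeostatic genes and transcription factors), which held 74 tested genes without the 9. Of these 74, 10 fell (13.5%, against 2.66% of all genes tested and 5.51% of those at least as abundant as Aldh1l1) and 2 rose, with a median log2 fold change of -0.092. Without shPpp1r17 libraries 2 and 3, none of these 12 genes passed and all 12 kept their sign. In the list on potassium and ion balance, 3 of 10 genes fell and none rose. Kcnj10, the inward rectifier potassium channel of astrocytes, fell to 154 ± 25.7 CPM in shPpp1r17, against 208 ± 15.7 CPM in shfLuc (log2 fold change -0.43, adjusted p = 0.0351). Its partner Kcnj16 fell to 39.4 ± 3.91 CPM in shPpp1r17, against 50.03 ± 2.74 CPM in shfLuc (-0.34, adjusted p = 0.0377). Atp1b2, the glial beta subunit of the sodium pump, fell to 364 ± 25.1 CPM in shPpp1r17, against 451 ± 33.1 CPM in shfLuc (-0.31, adjusted p = 0.0313). With length and GC trends removed, Kcnj10 had an adjusted p of 0.0510 and Kcnj16 one of 0.0589. The potassium leak channel gene Kcnk1 averaged 35.7 ± 1.39 CPM in shPpp1r17 and 30.1 ± 2.61 CPM in shfLuc (0.24, adjusted p = 0.112).

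In the list on the glutamate and glutamine cycle and amino acid transport, 1 of 12 genes fell, none rose and 10 of 12 lay below 0. Slc6a9, a glycine transporter, fell to 32.1 ± 5.91 CPM in shPpp1r17, against 51.8 ± 7.28 CPM in shfLuc (-0.69, adjusted p = 0.0144). The astrocyte GABA transporter gene Slc6a11 averaged 212 ± 42.7 CPM in shPpp1r17 and 285 ± 27.3 CPM in shfLuc (-0.43, adjusted p = 0.0601). The neutral amino acid transporter gene Slc7a10 had a log2 fold change of -0.60 (adjusted p = 0.115).

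In the complex that anchors the water channel, 2 of 9 genes fell and none rose. Dtna (dystrobrevin alpha) fell to 126 ± 9.29 CPM in shPpp1r17, against 157 ± 7.97 CPM in shfLuc (-0.31, adjusted p = 0.0291), and Dag1 (dystroglycan) to 34.6 ± 5.21 CPM in shPpp1r17, against 45.7 ± 2.84 CPM in shfLuc (-0.40, adjusted p = 0.0380). Dystrophin (Dmd) had a log2 fold change of -0.28 (adjusted p = 0.121) and the laminin gene Lama2 one of -0.42 (adjusted p = 0.350). Neither passed with limma on log2(TPM + 1), with an adjusted p of 0.105 for Dtna and 0.0602 for Dag1. Both anchoring genes that fell are expressed by cells other than astrocytes too. None of 10 connexin and pannexin genes passed, Gja1 and Gjb6 included. Gjb2, a further connexin, averaged 3.17 ± 0.774 CPM in shPpp1r17 and 4.25 ± 0.998 CPM in shfLuc (-0.42, adjusted p = 0.354), and Gjb1, the connexin of oligodendrocytes, averaged 2.77 ± 1.29 CPM in shPpp1r17 and 1.69 ± 0.888 CPM in shfLuc (0.71, adjusted p = 0.378). Gjd2, the connexin of neurons, and Panx1 had log2 fold changes of -0.25 and 0.13 (adjusted p = 0.570 and 0.600).

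Around Agt, 1 of 10 renin-angiotensin genes fell, which was Agt, and 1 rose. Atp6ap2, the prorenin receptor and a subunit of the proton pump, rose to 522 ± 51.2 CPM in shPpp1r17, against 409 ± 14.5 CPM in shfLuc (0.35, adjusted p = 0.0200), and did not pass with limma on log2(TPM + 1) (adjusted p = 0.0708). Ace, the angiotensin-converting enzyme, averaged 12.9 ± 3.30 CPM in shPpp1r17 and 19.0 ± 1.23 CPM in shfLuc (-0.56, adjusted p = 0.0654), and Anpep, an aminopeptidase, 1.01 ± 0.168 CPM in shPpp1r17 and 0.620 ± 0.246 CPM in shfLuc (0.70, adjusted p = 0.332). The renin gene Ren1 did not pass the filter on low counts.

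Among 29 other homeostatic astrocyte genes, 2 fell and 2 rose. Ndrg2 fell to 672 ± 95.1 CPM in shPpp1r17, against 953 ± 123 CPM in shfLuc (-0.50, adjusted p = 0.0199), and Ttyh1 to 159.7 ± 21.8 CPM in shPpp1r17, against 215 ± 8.93 CPM in shfLuc (-0.43, adjusted p = 0.0201). The mitochondrial glutamate carrier gene Slc25a18 rose to 103 ± 6.86 CPM in shPpp1r17, against 77.9 ± 5.87 CPM in shfLuc (0.40, adjusted p = 0.0151). S100b, a calcium-binding protein of astrocytes, rose to 172 ± 12.4 CPM in shPpp1r17, against 141 ± 5.30 CPM in shfLuc (0.29, adjusted p = 0.0341). With limma on log2(TPM + 1) neither passed, with an adjusted p of 0.0503 for Slc25a18 and 0.0822 for S100b. Astrocyte genes thus moved in both directions in the same libraries. Of 14 transcription factor genes of astrocytes, 2 fell: Sox2, of stem cells and astrocytes, to 21.1 ± 2.66 CPM in shPpp1r17, against 31.0 ± 2.64 CPM in shfLuc (-0.55, adjusted p = 0.0143), and the nuclear receptor gene Rorb to 175 ± 33.1 CPM in shPpp1r17, against 245 ± 25.2 CPM in shfLuc (-0.48, adjusted p = 0.0329), which with length and GC trends removed had an adjusted p of 0.0846. Id3 (0.37, adjusted p = 0.0898) and Nfix (-0.30, adjusted p = 0.123) did not pass.

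**Figure D5:**
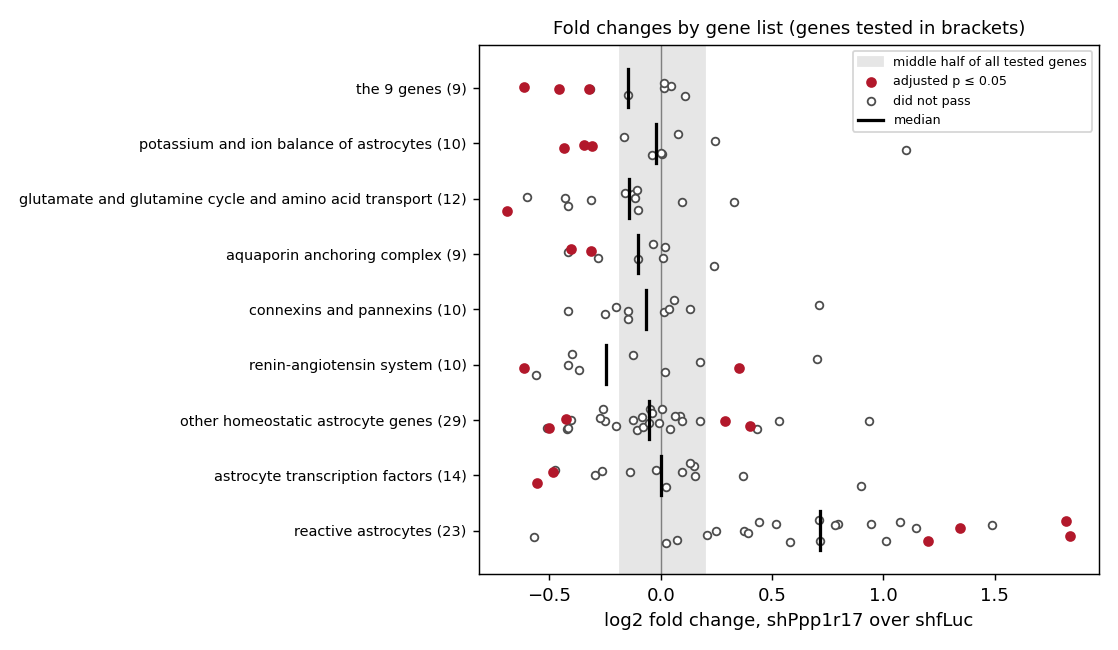
Log2 fold change, shPpp1r17 over shfLuc, of every tested gene in the 9 genes and 8 lists, with filled points for an adjusted p of at most 0.05 in edgeR, black bars for list medians and a grey band for the middle of all tested genes. Medians of the homeostatic lists lie between -0.25 and 0.00, and that of the reactive list lies at 0.72.

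The reactive astrocyte genes ran the other way, with 4 of 23 tested genes higher, none lower and a median log2 fold change of 0.72. Of all genes tested, 3.39% were called higher. Gfap rose to 204 ± 110.1 CPM in shPpp1r17, against 57.8 ± 19.5 CPM in shfLuc (1.82, adjusted p = 0.0124), and Vim to 34.5 ± 12.03 CPM in shPpp1r17, against 14.996 ± 3.33 CPM in shfLuc (adjusted p = 0.0128). The complement genes C3 (1.84, adjusted p = 0.0177) and C4b (1.34, adjusted p = 0.0455) also rose. C4b, whose groups overlapped, did not pass with DESeq2 (adjusted p = 0.0503), limma voom (0.0772) or limma on log2(TPM + 1) (0.0657). Without shPpp1r17 libraries 2 and 3 none of the 4 passed, with log2 fold changes of 0.99 for Gfap and 0.71 for Vim.

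Markers of other cells moved in the same libraries. Of 14 microglia and macrophage genes 8 rose, of 12 oligodendrocyte genes 5 rose, and all 5 blood genes rose, against 3.39% of all tested genes. Summed levels were 485 to 853 CPM in shPpp1r17 libraries and 328 to 468 CPM in shfLuc libraries for microglia, 1335 to 2356 CPM in shPpp1r17 libraries and 1293 to 1343 CPM in shfLuc libraries for oligodendrocytes, and 638 to 1231 CPM in shPpp1r17 libraries and 328 to 567 CPM in shfLuc libraries for blood. Neuronal markers summed to 5481 to 5892 CPM in shPpp1r17 libraries and 5672 to 5734 CPM in shfLuc libraries, with 4 of 14 lower and 1 higher. Oligodendrocyte precursor markers summed to 207 to 221 CPM in shPpp1r17 libraries and 224 to 236 CPM in shfLuc libraries (1 of 8 lower). Of 11 tanycyte and ependymal genes 2 rose, and their sums overlapped, at 748 to 889.9 CPM in shPpp1r17 libraries and 606 to 956 CPM in shfLuc libraries. Of 10 endothelial genes 1 rose (354 to 474 CPM in shPpp1r17 libraries, 360.2 to 422 CPM in shfLuc libraries), and of 10 mural and leptomeningeal genes 1 rose (149 to 227 CPM in shPpp1r17 libraries, 139 to 156 CPM in shfLuc libraries). No gene of these lists was at 0 in all libraries. The part of other cell types in the levels of the 9 genes was not tested.

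The 9 genes did not move as one. To see which transcripts followed their common level, each gene's log2 CPM was scaled to mean 0 and SD 1 and the mean over the 9 was correlated with each of 9607 genes averaging 3 or more in log2 CPM. Over the 8 libraries, Pearson's r was highest for Tmem209 (0.977), Lrrc14 (0.945), Dhx36 (0.942), Pip5k1b (0.937) and Slc41a1 (0.935). It was lowest for Tmem242 (-0.982), Bin1 (-0.966), Stc1 (-0.958), Orc5 (-0.932) and Arhgap31 (-0.919). These values describe likeness over 8 libraries that share group, depth and the 2 libraries that stand apart, and they carry no test.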

How the data were processed

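Total RNA of 8 laser-microdissected DMH samples was isolated with a kit for small samples and made into SMARTer libraries, per the labels' protocols. Per the file headers, each table made by the authors lists 55487 gene identifiers with a length, an effective length, TPM (scaled to gene length and library) and NumReads, an estimated count of reads assigned to the gene that need not be whole. Tools named in the submitters' processing notes are DRAGEN, bcl2fastq, limma and edgeR. Aligner settings, build and annotation: not given in the sources used here. Symbols matched 55141 identifiers. Coordinates and 3' UTRs come from GENCODE M21 (GRCm38), which may not be the authors' build.

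Expected counts were rounded and tested with edgeR 4.0.16 (quasi-likelihood test, TMM factors, minimum count 10, minimum total count 15) in R 4.3.3. P-values were Benjamini-Hochberg adjusted across the 17339 genes kept, and called at 0.05. Standard errors were computed as the log2 fold change over the root of F. CPM are TMM-scaled. The deposited TPM (pseudocounts 1 and 0.1) and effective length served levels per length and alternatives, as did DESeq2 1.42.0, limma 3.58.1 (voom), other scalings and filters, and each library left out. Ratios (prior 0.5 reads) were compared by exact two-sided permutation with SciPy 1.17.1. Tables and sequence searches used Python 3.11.15, NumPy 2.4.6 and pandas 2.3.3.

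The 9 genes, the lists and the tests were chosen with earlier results of these data known. Beside the 9, the genes named are the 4 with the smallest p in a list and the 5 most and 5 least alike. An item this rule selects is not reported here. Lists of other cell types are given by counts and sums alone. Marker genes can be expressed in several cell types. Between replicates of a group, chi-square per degree of freedom was 7.37 to 40.7, far above sampling noise, so each library was counted once. On data simulated for this comparison (16798 genes, 200 changed), the share of changed genes found was 48.4% at 1.5-fold, 71.4% at 2-fold and 96.8% at 4-fold, with 4.26% false among the calls. The simulation gave every shPpp1r17 library the same fold change, so these shares do not cover the difference of libraries 2 and 3 from 1 and 4. Nor do they cover changes under 1.5-fold, such as those of Slc1a3 and Slc4a4. The reads carry no molecular identifiers that the sources mention, so counts are not independent molecules.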

Additional observations from a re-analysis of the deposited data

Results flagged for a closer look

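Slc4a4 had 1 library far from the other 3 in each group. In shPpp1r17, library 3 stood at 108.47 CPM, below the others at 118 to 119.9 CPM. In shfLuc, library 3 stood at 134.43 CPM, below the others at 149 to 149.6 CPM. The gap to the nearest library was 0.855 of the range in shPpp1r17 and 0.934 in shfLuc, both above Dixon's critical value for 4 samples. These were 2 of 40 groups examined, and chance alone marks about 1 in 20.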

How the results depend on the processing

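Agt, Slc1a3, Slc4a4 and Aldh1l1 stayed below 0 under every alternative tried. The number of genes called moved most. DESeq2 called 994 genes higher and 931 lower, and limma voom with sample quality weights 897 and 866. Limma on the deposited TPM called 309 higher (pseudocount 1, 38.8% of its calls higher against 56% in edgeR) or 306 (pseudocount 0.1). With each library left out, edgeR called 0 to 842 genes higher, 0 to 706 lower and 0 to 3 of the 9 genes lower. Both counts were 0 without shfLuc 2 or 3, where 3309 and 3146 genes had an unadjusted p under 0.05. Without shPpp1r17 libraries 2 and 3, 26 genes were higher and 11 lower, and 0 of the 9. The cause was not tested.

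Same-numbered libraries of the groups deviated together little (correlations -0.009, 0.026, 0.014 and 0.11), so the numbers were not taken as pairs. With the replicate number as a block, 302 genes were called lower.

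On TPM with pseudocounts 1 and 0.1 the median log2 fold change over all 17339 genes was -0.062 and -0.080, against 0.0043 on counts. Signs turned for the following values, the cause of which was not tested. On TPM with pseudocounts 1 and 0.1, values were -0.072 and -0.072 for Slc1a2, -0.053 and -0.055 for Aqp4, -0.076 and -0.077 for Gja1, -0.036 and -0.036 for Mlc1, and -0.045 and -0.047 for Slc1a1. Without shPpp1r17 libraries 2 and 3 they were -0.083 for Slc1a2, -0.22 for Aqp4, 0.19 for Gjb6 and -0.030 for Gjb1, and the log2 ratios 0.16 for Gjb6 over Gja1, 0.13 for Slc1a3, 0.10 for Slc4a4 and 0.049 for Agt over Aldh1l1. On TPM the ratios of Slc1a3 and Slc4a4 to Aldh1l1 were 0.082 and 0.19. With 1 library left out, ranges crossed 0 for Slc1a2 (-0.024 to 0.053), Gjb6 (-0.39 to 0.017), Aqp4 (-0.085 to 0.22), Gja1 (-0.024 to 0.078), Mlc1 (-0.026 to 0.11), Gjb6 over Aldh1l1 (-0.063 to 0.35) and Slc4a4 over Aldh1l1 (-0.070 to 0.039). The least abundant of the 9 in CPM, Aldh1l1, had 499 to 765 reads in shPpp1r17 libraries and 630.0 to 681 in shfLuc libraries.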
